A study of Mus musculus with 60 samples.

Results

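The dorsal and the ventral dentate gyrus (DG) of mice raised in an enriched environment (EE) were compared by RNA-seq. The 10 samples were the 5 dorsal EE and the 5 ventral EE replicates, chosen by their labels from the 20 RNA-seq samples of the series, and a dorsal and a ventral sample with the same number came from the same pool of mice. All were male C57BL6J mice aged 80 days, weaned on postnatal day 22 and then kept for 8 weeks 12 to a cage with running wheels, a bridge and toys that were changed weekly. The standard housing (SH) samples are set beside the EE values only where stated. They came from mice of the same strain and age kept 3 to a smaller cage. These mice are also described as male, and an SH pool with a high Xist level is treated below. No transgene or drug is named for any sample.

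Each sample was whole tissue punched from frozen brain and pooled over several animals, so the values are means over all cells in the punch, and fewer cells of a type cannot be told apart from less RNA per cell. Dorsal punches were taken from coronal slices and ventral punches from horizontal slices, so region and slicing plane cannot be told apart either. The libraries held 24089754 to 28301861 counts on genes in dorsal EE and 22919364 to 26711926 in ventral EE. Levels are given as CPM, counts relative to the library total with TMM scaling. CPM compare samples for 1 gene and not genes with each other.

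The DG is the entry station of the hippocampus. Its granule cells receive input from the entorhinal cortex and project to CA3, and a stem cell niche at their base adds new granule cells in adult life. The dorsal pole is best known for spatial memory and the ventral pole for anxiety and stress responses. The principal cells of the hippocampus are known to differ along this axis in their transcription factors, adhesion and guidance molecules, channels and peptide receptors.

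A gene was called different when its false discovery rate (FDR, the Benjamini-Hochberg adjusted p of edgeR's quasi-likelihood test with pool as a block) was below 0.05 and its fold change above 20%. Log2 fold changes are dorsal over ventral, with their standard error. A gene called toward a region was higher there. Of 16687 genes tested, 5122 were called (30.7%), 2484 higher in dorsal DG (14.9%) and 2638 higher in ventral DG (15.8%). A called gene is therefore common in this comparison, and each count below is to be read against these shares. Among called genes the median size of a log2 fold change was 0.48, and 840 genes (5.03%) differed by more than 2-fold, 344 toward dorsal (2.06%) and 496 toward ventral DG (2.97%). The dorsal and the ventral samples did not overlap for 4859 genes (29.1%), and 4751 of the 5122 called genes kept their direction in all 5 pools. Restricting to the 11844 genes whose TPM exceeded 1 in 3 or more of the samples left 3361 calls (28.4%), 1695 toward dorsal (14.3%) and 1666 toward ventral DG (14.1%), and of these 93 (0.785%) and 121 (1.02%) passed 2-fold.

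**Figure D1:**
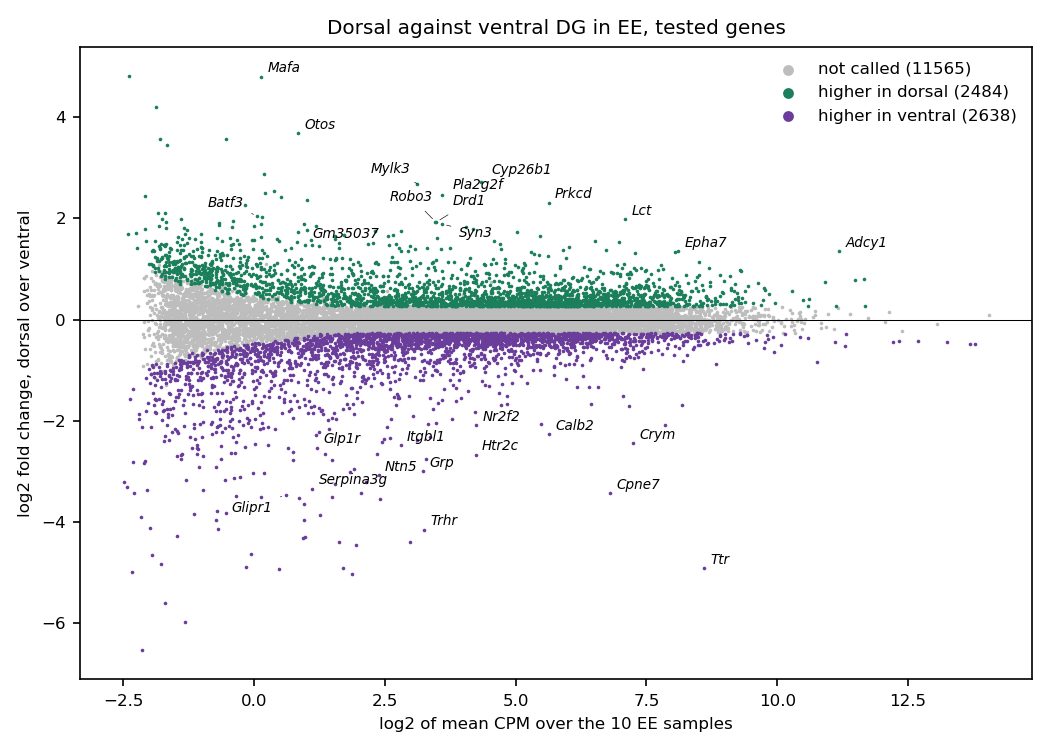
Log2 fold change of dorsal over ventral DG in EE (vertical axis) against the log2 of the mean CPM over the 10 samples (horizontal axis), 1 point per tested gene. The 2484 genes higher in dorsal DG are green, the 2638 higher in ventral DG purple and the 11565 genes not called grey; the labelled genes include the 20 with the leading fold changes, from Otos at 3.69 to Trhr at -4.15.

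The 10 genes with the largest dorsal fold changes joined an ear protein, enzymes, a guidance receptor and a dopamine receptor. They were chosen among called genes whose TPM exceeded 1 in 3 or more samples, with 1 direction in all 5 pools and a place in no marker list of another cell type, and for each of them the lowest dorsal sample lay above the highest ventral sample. Otos (chr1:92644218-92648841, minus strand, mm10), which encodes otospiralin, a small secreted protein known from the inner ear, was at 3.46, 2.69, 2.92, 2.94 and 4.63 CPM in dorsal pools 1 to 5 and at 0.232, 0.270, 0.274, 0.274 and 0.222 CPM in the ventral samples of the same pools. Every ventral sample was close to the limit of detection, and the log2 fold change was 3.69 ± 0.19 (FDR = 2.52e-10). Cyp26b1 (chr6:84571414-84593908, minus strand), the enzyme that degrades retinoic acid, was at 38.9, 31.3, 37.5, 30.5 and 37.5 CPM in dorsal samples and 5.58, 4.96, 5.40, 6.59 and 4.25 CPM in ventral samples. Its log2 fold change was 2.72 ± 0.09 (FDR = 1.99e-12), with a narrow spread within each region. Mylk3, a myosin light chain kinase known from heart muscle, was at 13.7, 14.1, 13.7, 17.4 and 15.7 CPM in dorsal samples and 1.90, 1.94, 1.84, 3.41 and 2.51 CPM in ventral samples, with pool 4 the highest in both regions. The log2 fold change of Mylk3 was 2.69 ± 0.09. Pla2g2f, a secreted phospholipase A2, was at 18.1, 20.5, 21.5, 22.5 and 19.0 CPM in dorsal samples and 4.46, 3.78, 2.82, 4.31 and 3.18 CPM in ventral samples (2.45 ± 0.09).

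Lct, which encodes lactase and is known in the hippocampus as a granule cell transcript, was at 199.7, 208, 225, 235 and 219 CPM in dorsal samples and 51.7, 49.1, 46.0, 73.5 and 55.4 CPM in ventral samples, a log2 fold change of 1.99 ± 0.06 (FDR = 1.03e-12). Ventral pool 4 was the highest of its region and was still far below every dorsal sample. Drd1, the D1 dopamine receptor, was at 16.4, 16.1, 18.2, 19.9 and 17.7 CPM in dorsal samples and 3.45, 4.82, 3.91, 6.19 and 4.98 CPM in ventral samples (1.93 ± 0.09, FDR = 4.17e-11). Robo3, a receptor of the Slit guidance family that acts in midline crossing of axons, was at 14.6, 15.4, 16.0, 23.0 and 18.6 CPM in dorsal samples and 4.57, 3.33, 3.95, 6.31 and 4.73 CPM in ventral samples (1.93 ± 0.08). Pool 4 was again the highest in both regions. Syn3, a synapsin of synaptic vesicles, was at 17.7 to 20.2 CPM in dorsal samples and 4.42 to 5.76 CPM in ventral samples (1.89 ± 0.07). Batf3, a transcription factor of the AP-1 family, was lower in level at 1.4 to 2.28 CPM in dorsal samples and 0.295 to 0.626 CPM in ventral samples (2.05 ± 0.23). The long noncoding RNA gene Gm35037 was at 2.40 to 3.68 CPM in dorsal samples and 0.659 to 1.08 CPM in ventral samples (1.89 ± 0.15).

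The 10 leading ventral genes held 3 receptor genes, Trhr, Htr2c and Glp1r, and 1 peptide gene, Grp, beside 6 of other kinds. Trhr (chr15:44196135-44235912, plus strand), the receptor of thyrotropin-releasing hormone, had the largest fold change of both directions under the same rule. It was at 17.4, 18.9, 12.7, 18.3 and 22.9 CPM in ventral pools 1 to 5 and at 0.919, 0.744, 1.18, 0.981 and 1.23 CPM in the dorsal samples, a log2 fold change of -4.15 ± 0.11 (FDR = 2.37e-13). Its ligand gene Trh was below the count filter, with at most 3 counts in any of the 10 samples. Cpne7 (chr8:123117374-123135182, plus strand), a copine, which are calcium-dependent membrane-binding proteins, was at 219, 181, 223, 175 and 221 CPM in ventral and 23.2, 19.5, 17.1, 16.1 and 19.0 CPM in dorsal DG. The spread within each region was small beside this gap, and its log2 fold change was -3.43 ± 0.06 (FDR = 1.97e-15). Grp, the gastrin-releasing peptide, was at 17.1, 16.6, 13.7, 17.2 and 18.8 CPM in ventral and 1.54, 1.82, 2.19, 2.53 and 2.45 CPM in dorsal DG (-2.99 ± 0.10, FDR = 1.89e-12). Crym, a thyroid hormone-binding crystallin, was at 261, 248, 281, 227 and 259 CPM in ventral and 47.4, 50.9, 44.5, 46.6 and 44.8 CPM in dorsal DG (-2.44 ± 0.05, FDR = 1.62e-14). For Crym the 5 pools differed little in either region.

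Htr2c (chrX:146962513-147197277, plus strand), the 5-HT2C serotonin receptor, was at 30.7, 24.1, 42.1, 29.8 and 36.6 CPM in ventral and 6.36, 6.45, 4.59, 3.35 and 4.80 CPM in dorsal DG, a log2 fold change of -2.67 ± 0.13 (FDR = 1.69e-10). Its ventral level was highest in pool 3 and lowest in pool 2, which are also the pools with the most and the least choroid plexus marker RNA, a tissue in which this receptor is known to be abundant. The part of choroid plexus RNA in the level of Htr2c was not tested. Glp1r, the receptor of glucagon-like peptide 1, was at 4.38, 2.97, 3.72, 4.19 and 4.43 CPM in ventral and 0.846, 0.661, 0.568, 0.818 and 0.526 CPM in dorsal DG (-2.53 ± 0.15). Ntn5, a netrin, was at 7.71, 8.56, 7.79, 11.6 and 10.9 CPM in ventral and 0.956, 1.32, 1.02, 0.899 and 1.33 CPM in dorsal DG (-3.06 ± 0.12). Both genes showed no overlap between the regions. Itgbl1, an integrin beta-like protein, was at 1.32 to 2.76 CPM in dorsal samples and 10.5 to 13.3 CPM in ventral samples (-2.47 ± 0.10). Glipr1 was at 0.164 to 0.331 CPM in dorsal samples and 2.36 to 3.25 CPM in ventral samples (-3.46 ± 0.20). Serpina3g, a serine protease inhibitor of a cluster of near-identical genes whose reads may be shared, was at 5.08, 2.66, 5.40, 2.98 and 3.62 CPM in ventral and 0.625, 0.331, 0.325, 0.286 and 0.351 CPM in dorsal DG (-3.34 ± 0.17). Of the 10 ventral leaders, Serpina3g and Htr2c (20%) had their highest ventral sample in pool 3 and their lowest in pool 2. The same order was found for 22% of all genes over 2-fold higher in ventral DG.

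**Figure D2:**
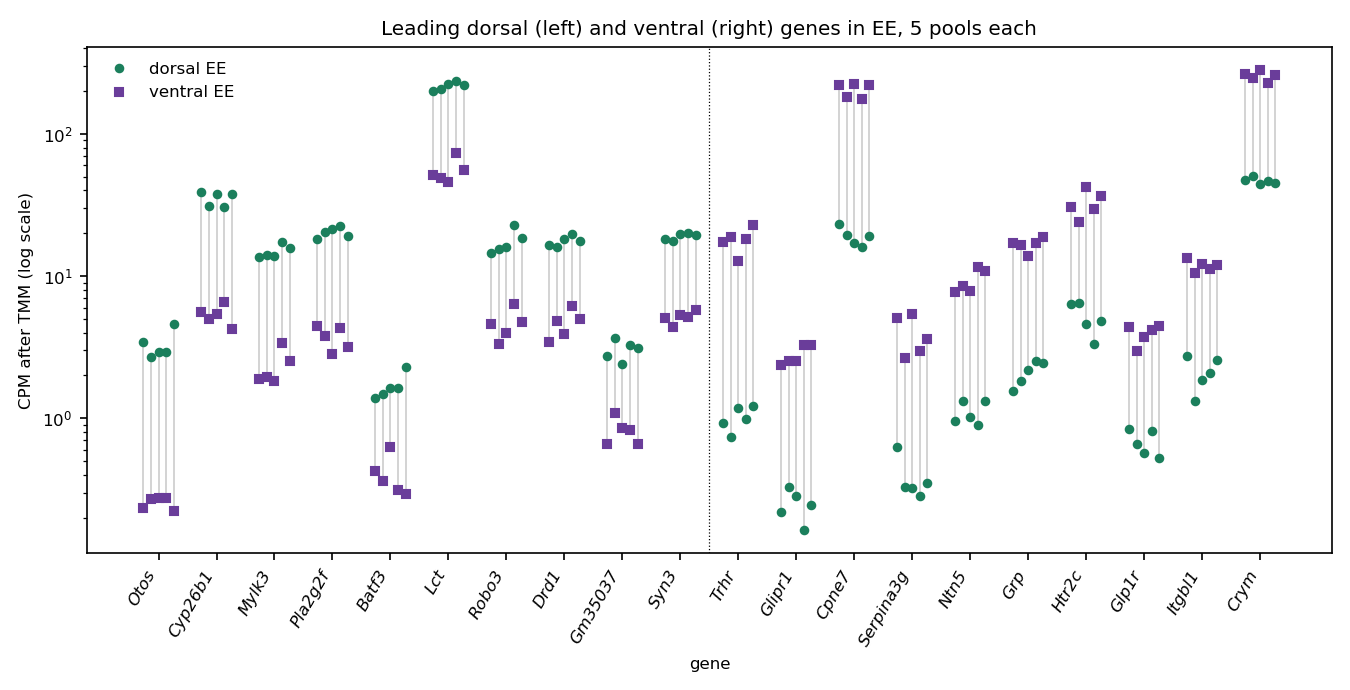
CPM after TMM scaling on a log axis for the 10 leading dorsal genes (left of the dotted line) and the 10 leading ventral genes (right), with green circles for dorsal EE, purple squares for ventral EE and a grey line joining the samples of 1 pool, pools 1 to 5 from left to right within a gene. In none of the 20 genes did the dorsal and ventral samples overlap; Trhr was at most 1.23 CPM in dorsal and at least 12.7 CPM in ventral DG.

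Promoter sequences from RefSeq (GRCm38.p6, 250 bases before to 50 bases after the annotated start, 5′ to 3′ on the gene's strand) are shown for 5 of the leading genes that had an entry, those with the largest fold changes in each direction apart from Mylk3: Otos, Cyp26b1 and Pla2g2f for dorsal and Serpina3g and Ntn5 for ventral DG. Capitals mark a match, on either strand, to the E-box CAGATG of the NeuroD family, the nuclear receptor half-site AGGTCA or the AP-1 site TGACTCA, none of which overlap each other in these sequences. Otos lies at chr1:92648792-92649091 (minus strand), Cyp26b1 at chr6:84593761-84594060 (minus strand), Pla2g2f at chr4:138757549-138757848 (minus strand), Serpina3g at chr12:104235897-104236196 (plus strand) and Ntn5 at chr7:45683772-45684071 (plus strand).
Otos: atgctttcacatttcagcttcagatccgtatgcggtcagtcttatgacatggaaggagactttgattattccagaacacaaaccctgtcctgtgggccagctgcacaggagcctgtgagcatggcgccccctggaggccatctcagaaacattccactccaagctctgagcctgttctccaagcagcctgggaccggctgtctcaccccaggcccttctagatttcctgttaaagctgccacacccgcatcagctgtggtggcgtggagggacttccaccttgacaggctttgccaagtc
Cyp26b1: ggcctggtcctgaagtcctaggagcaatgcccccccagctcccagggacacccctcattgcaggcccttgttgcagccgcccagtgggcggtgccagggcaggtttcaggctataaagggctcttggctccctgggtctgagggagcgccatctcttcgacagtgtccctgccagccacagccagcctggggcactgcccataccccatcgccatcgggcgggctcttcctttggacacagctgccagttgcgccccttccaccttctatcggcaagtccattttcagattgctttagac
Pla2g2f: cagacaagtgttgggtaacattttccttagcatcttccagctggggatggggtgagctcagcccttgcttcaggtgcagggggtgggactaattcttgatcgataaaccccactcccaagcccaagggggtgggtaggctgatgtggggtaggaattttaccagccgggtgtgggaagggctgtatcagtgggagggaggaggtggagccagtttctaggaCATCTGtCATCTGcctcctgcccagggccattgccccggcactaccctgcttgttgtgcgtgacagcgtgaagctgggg
Serpina3g: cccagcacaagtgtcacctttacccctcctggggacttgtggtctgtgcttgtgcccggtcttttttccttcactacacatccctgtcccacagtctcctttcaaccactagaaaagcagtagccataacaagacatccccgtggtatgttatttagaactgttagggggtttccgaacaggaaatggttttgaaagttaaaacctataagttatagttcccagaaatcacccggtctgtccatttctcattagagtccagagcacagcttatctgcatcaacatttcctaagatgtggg
Ntn5: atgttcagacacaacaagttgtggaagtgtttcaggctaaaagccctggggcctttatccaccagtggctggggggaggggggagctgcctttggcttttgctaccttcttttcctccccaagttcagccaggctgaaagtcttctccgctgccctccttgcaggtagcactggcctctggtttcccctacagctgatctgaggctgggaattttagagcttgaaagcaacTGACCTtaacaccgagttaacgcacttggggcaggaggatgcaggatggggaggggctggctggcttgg
Pla2g2f held the E-box letters at 2 places, starting 29 and 22 bases before the start site, and Ntn5 held a half-site 19 bases before it. Htr2c held a half-site 230 bases and Itgbl1 an E-box 99 bases before its start. Of the dorsal leaders with an entry, only Pla2g2f held any of these motifs. The Mylk3 entry, which lies 5304 bases from the Gencode start of that gene, held none and is not shown. The 3 motifs were in 15.5%, 14.6% and 4.6% of all 19212 promoters, so a match in single genes is a description of these letters and not of a bound site. Too few of the called genes had a promoter entry for shares over the dorsal and ventral sets to be given.

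The 5 largest differences in CPM toward dorsal DG, an order that also follows transcript length and abundance, were those of Adcy1, Malat1, Ncdn, Ppp3ca and Camk2b. Adcy1, the calcium-stimulated adenylyl cyclase of neurons, was at 3566, 3462, 3463, 3224 and 2934 CPM in dorsal samples and 1257, 1659.8, 1231, 1288 and 1143 CPM in ventral samples (1.35 ± 0.06, FDR = 3.15e-11). Ventral pool 2 stood above the other ventral samples and below every dorsal sample. Ppp3ca, the catalytic subunit of calcineurin, was at 2021 to 2642 CPM in dorsal samples and 1268 to 1667 CPM in ventral samples (0.74 ± 0.05). Camk2b, a subunit of calcium/calmodulin kinase II, was at 1451 to 1507 CPM in dorsal samples and 914 to 1096 CPM in ventral samples (0.57 ± 0.04). Ncdn, which encodes neurochondrin, a regulator of that kinase, was at 3461 to 3700.1 CPM in dorsal samples and 1955 to 2352 CPM in ventral samples (0.78 ± 0.05). The nuclear long noncoding RNA Malat1 was at 3310.3 to 4692 CPM in dorsal samples and 2088 to 2756 CPM in ventral samples (0.81 ± 0.05).

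On the ventral side the 5 largest differences in CPM were all of unprocessed pseudogenes, Gm13340, Gm28437, Gm29216, Gm28661 and Gm10925, on chromosomes 1 and 2. These are nuclear copies of mitochondrial genes, so reads of the mitochondrial transcripts cannot be told apart from theirs and the values are uncertain. Together they took 3.68 to 4.59% of the counts in dorsal and 4.4 to 7.16% in ventral EE samples. For all 5 the dorsal and ventral samples overlapped, although each was higher in ventral DG in all 5 pools, with log2 fold changes from -0.41 to -0.49.

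The labelled tissue was checked against cell type markers, and granule cell markers were present at high level in every sample. They were also the marker list most shifted to dorsal DG by count. Of 20 granule cell markers tested, 17 were called toward dorsal and 0 toward ventral DG (in all genes 14.9% and 15.8%), and the median log2 fold change was 0.90 against a median of -0.0017 over all tested genes. The markers were chosen with earlier results of these data known. Among them is Lct, which the paper names as enriched in dorsal DG, so the count partly reflects the choice of members. The summed level of the 20 markers was 5955 to 6382 CPM in dorsal samples and 3309 to 4068 CPM in ventral samples, with no overlap. Ncdn alone made up the largest part of this sum, with a mean of 3611 CPM in dorsal and 2111 CPM in ventral samples. The means of the whole sum were 6211 and 3567 CPM, so the sum follows Ncdn more than the other markers. Prox1, the transcription factor that defines granule cells, was at 208 to 256 CPM in dorsal samples and 105 to 142 CPM in ventral samples (0.96 ± 0.06, FDR = 1.71e-09). Fam163b was at 42.6 to 57.3 CPM in dorsal samples and 12.7 to 19.5 CPM in ventral samples (1.74 ± 0.10). Dsp, the desmosomal protein desmoplakin, was at 178 to 194 CPM in dorsal samples and 54.9 to 74.8 CPM in ventral samples (1.53 ± 0.05). C1ql2, a secreted C1q-like synaptic organizer of mossy fibres, was at 209 to 235 CPM in dorsal samples and 84.8 to 149.6 CPM in ventral samples (1.02 ± 0.07). The calcium-binding protein gene Calb1, also strong in granule cells, was not called at 167 to 225 CPM in dorsal samples and 150.5 to 216 CPM in ventral samples (0.18 ± 0.05), nor were Marcks (0.24) and Cald1 (0.19).

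Markers of choroid plexus, the epithelium that makes cerebrospinal fluid in the ventricle next to the hippocampus, moved with region in the other direction. All 18 were higher in ventral DG, with a median log2 fold change of -3.59. Their summed level was 649, 484, 1575, 1034 and 912 CPM in ventral pools 1 to 5 and 58.3 to 104 CPM in dorsal samples, and the ventral mean was 11.4-fold higher. Ttr, the thyroxine and retinol carrier transthyretin, was at 509, 379, 1302, 835 and 726 CPM in ventral and 5.11, 47.7, 38.6, 16.0 and 25.6 CPM in dorsal DG (-4.91 ± 0.32). The folate receptor gene Folr1 was at 0.0368 to 0.496 CPM in dorsal samples and 3.29 to 12.8 CPM in ventral samples (-5.04 ± 0.27). Of the 18 markers 16 were highest in ventral pool 3 and lowest in ventral pool 2. That order was found for 7.04% of all tested genes, 4.51% of the genes higher in dorsal DG, 10.5% of those higher in ventral DG and 22% of those over 2-fold higher in ventral DG. For single genes it is named only among the ventral leaders, the neuropeptide receptors, the retinoic acid genes and the collagens. Other ventral genes had it too, for example Kcnq5, Nkd2, Slit2 and Cdh3. The part of choroid plexus RNA in the ventral calls was not tested beyond this order. Without pool 3, 2529 genes were higher in ventral DG and all 18 choroid plexus markers were still among them.

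Ependymal markers, of the ciliated cells that line the ventricle, were higher in ventral DG for 8 of 9, with summed levels of 13.5 to 19.0 CPM in dorsal samples and 21.5 to 34.6 CPM in ventral samples. The ependymal genes with the largest fold changes were Pifo (-2.91 ± 0.34) and Dynlrb2 (-2.22 ± 0.39), both of cilia. Markers of hilar mossy cells, the glutamatergic neurons of the hilus, summed to 87.4 to 102 CPM in dorsal samples and 202 to 228 CPM in ventral samples, and 4 of 8 were higher in ventral and 2 in dorsal DG. The largest parts of the sum were Ociad2, at 47.1 to 51.0 CPM in dorsal samples and 89.2 to 117 CPM in ventral samples (-1.12 ± 0.05), and Calb2. Calb2, which encodes calretinin and is also found in immature granule cells and interneurons, was at 84.1, 74.8, 58.2, 101 and 93.9 CPM in ventral and 16.9, 25.2, 16.1, 11.4 and 15.8 CPM in dorsal DG (-2.27 ± 0.14, FDR = 1.74e-09). Gal, the peptide galanin, was at 0.162 to 0.413 CPM in dorsal samples and 0.431 to 1.45 CPM in ventral samples (-1.81 ± 0.28). Nmb, neuromedin B, was at 4.41 to 5.23 CPM in dorsal samples and 1.99 to 2.86 CPM in ventral samples (0.92 ± 0.10). Drd2, the other dorsal call of the mossy cell list, had overlapping samples and is given with the dopamine receptors below. Markers of habenula and thalamus, which lie under the dorsal hippocampus, were higher in dorsal DG for 8 of 15 (5 without pool 1, without pool 2 or with the filterByExpr filter) and summed to 194 to 266 CPM in dorsal samples and 124 to 147 CPM in ventral samples. Pou4f1, the defining factor of habenular neurons, was at 0.203 to 1.10 CPM in dorsal samples and 0 to 0.116 CPM in ventral samples (3.57 ± 0.50). The habenular receptor gene Gpr151 was at 0.286 to 4.34 CPM in dorsal samples and 0.0392 to 0.391 CPM in ventral samples (2.88 ± 0.33). The thalamic kinase gene Prkcd was at 73.5 to 92.1 CPM in dorsal samples and 13.1 to 18.9 CPM in ventral samples (2.31 ± 0.09).

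Of 14 astrocyte markers 7 were higher in ventral and 0 in dorsal DG, led by Agt, angiotensinogen (-0.86 ± 0.09), and S100b (-0.57 ± 0.06). Gfap (0.01) and Aqp4 (0.00) were not called. The astrocyte sum was 7039 to 8616 CPM in dorsal samples and 7727 to 10509 CPM in ventral samples, higher in ventral DG in 5 of 5 pools. Of 12 microglial markers 1 was called, Aif1 (-0.31 ± 0.10), and of 11 endothelial markers 1, Vwf (0.27 ± 0.07). Oligodendrocyte markers gave 2 small dorsal differences of 13, Mag (0.28 ± 0.07) and Cldn11 (0.27 ± 0.09), and precursor markers 2 small ventral differences of 8, Olig1 (-0.35 ± 0.04) and Neu4 (-0.35 ± 0.06). The precursor sums did not overlap, at 240.2 to 279 CPM in dorsal and 283 to 314 CPM in ventral samples. The calls of Aif1, Vwf, Mag and Cldn11 were each lost when pool 1 was left out. Pericyte, smooth muscle and meningeal markers were higher in ventral DG for 6 of 16. Their sums were 298 to 345 CPM in dorsal and 366 to 428 CPM in ventral DG, with no overlap. Dcn, the proteoglycan decorin, was at 7.50 to 11.7 CPM in dorsal samples and 18.4 to 30.7 CPM in ventral samples (-1.41 ± 0.10). The growth factor Igf2, made by meninges, was at 18.5 to 24.9 CPM in dorsal samples and 26.1 to 43.2 CPM in ventral samples (-0.65 ± 0.09). Of 17 interneuron markers 4 were called toward ventral and 2 toward dorsal DG. Sst, somatostatin, was higher in ventral DG (54.0 ± 2.44 CPM in dorsal against 101 ± 5.61 CPM in ventral DG, mean ± SD, n = 5), as was Vip (-0.99 ± 0.08). Npy (0.38 ± 0.05) and Adarb2 (0.61 ± 0.04) were higher in dorsal DG. Gad1 (0.21) and Gad2 (0.09), which make GABA, were not called. CA pyramidal markers were called in both directions, 8 dorsal and 6 ventral of 17. They were led by Iyd (1.45 ± 0.10) and Lefty1 (0.89 ± 0.15) in dorsal and Spink8 (-0.83 ± 0.12) and Amigo2 (-0.71 ± 0.08) in ventral DG.

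**Figure D3:**
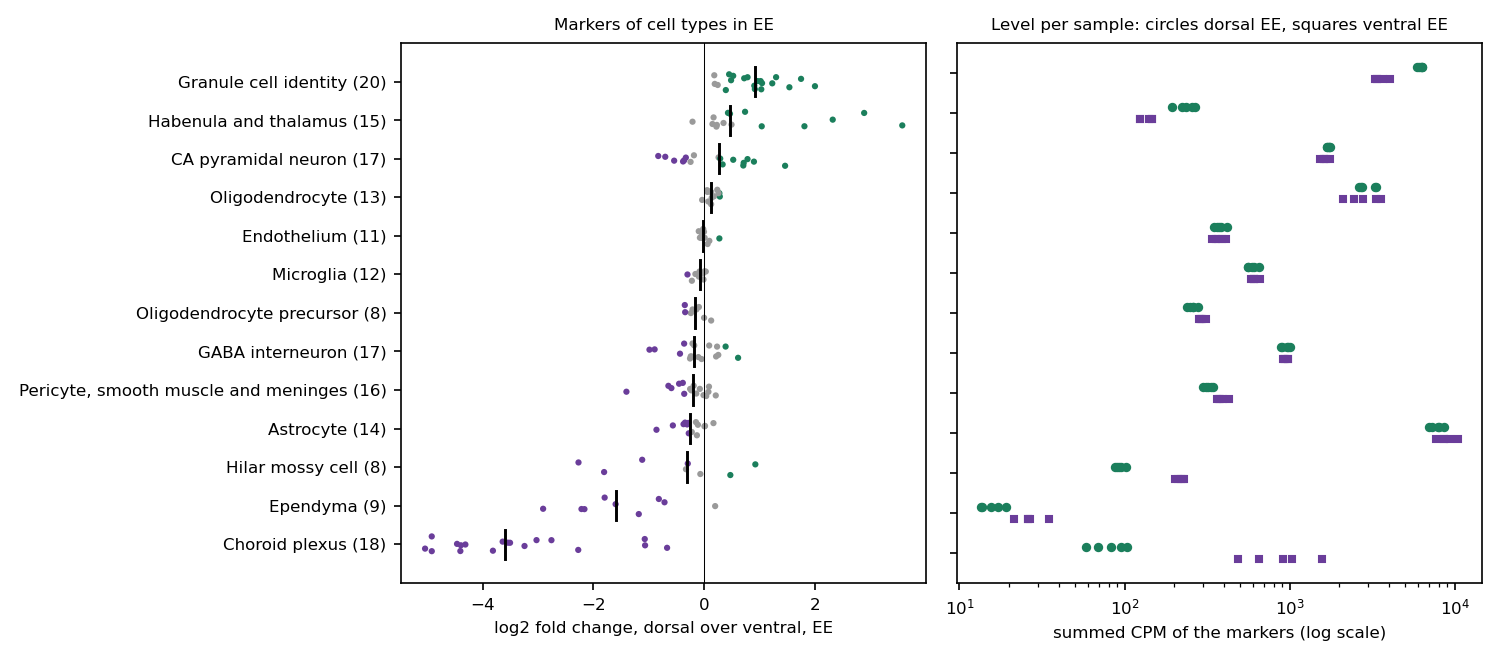
Left, log2 fold change of dorsal over ventral DG in EE for each marker, by cell type with the number of markers tested, green where higher in dorsal, purple where higher in ventral DG and grey where not called, with a black bar at the median. Right, the summed CPM of the markers in each sample on a log axis, circles for dorsal and squares for ventral EE; choroid plexus markers sit at 484 to 1575 CPM in ventral and 58.3 to 104 CPM in dorsal DG, and granule cell markers at 3309 to 4068 and 5955 to 6382 CPM.

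Transcription factors that pattern the forebrain differed in both directions. Of 39 tested, 14 were called toward dorsal and 11 toward ventral DG, with a median log2 fold change of -0.04. Mafa, a factor of the large Maf family, was at 2.46, 2.03, 1.83, 2.04 and 2.24 CPM in dorsal samples and 0.0775, 0.0901, 0.157, 0.0392 and 0 CPM in ventral samples (4.80 ± 0.32, FDR = 5.02e-09), near the limit of detection in every ventral sample. The dorsal group also held Bcl11b (0.98), Tbr1 (0.91), Mef2c (0.81), Foxp2 (0.79) and Zbtb20 (0.56), factors with known roles in cortical and hippocampal neurons. Bcl11b (CTIP2), needed for granule cell maturation, was at 212 to 255 CPM in dorsal samples and 109 to 130.5 CPM in ventral samples. Nr2f2 (COUP-TFII), an orphan nuclear receptor of caudal and ventral forebrain, was at 32.8, 25.8, 30.8, 29.0 and 35.7 CPM in ventral and 7.24, 6.61, 7.67, 7.19 and 7.43 CPM in dorsal DG (-2.09 ± 0.06, FDR = 4.42e-13). Its relative Nr2f1 was also higher in ventral DG (-0.52 ± 0.04), as were the homeodomain factors Meis1 (-1.17), Meis2 (-1.08) and Pbx3 (-0.55), the zinc finger factor Tshz2 (-1.61 ± 0.14) and Etv1 (-0.76), Sox5 (-0.72), Lhx9 (-0.48), Otx1 (-0.46) and Emx2 (-0.26). Emx1 was higher in dorsal DG (0.44 ± 0.06), while Pax6 (-0.12) and Lhx2 (-0.23) were not called.

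Guidance genes, ligands and receptors alike counted, gave more dorsal than ventral calls in the ephrin, semaphorin and netrin and Slit lists. The dorsal and ventral shares were 42.9% and 23.8%, 32.3% and 22.6%, and 25% and 5% (in all genes 14.9% and 15.8%). In the netrin and Slit list 30% of members were called in either direction, near the 30.7% of all genes. The median log2 fold changes were 0.12, -0.02 and 0.13. Of 21 ephrins and Eph receptors, 9 were called toward dorsal and 5 toward ventral DG. The dorsal calls were mostly receptors, Epha7 (1.36), Epha5 (1.07), Epha4 (0.95), Epha8 (0.91), Ephb1 (0.71), Ephb2 (0.65), Epha6 (0.52) and Epha10 (0.31), with 1 ligand, Efna2 (0.43). Epha7 was at 377, 363, 392, 432 and 416 CPM in dorsal samples and 148, 142, 141, 186 and 159 CPM in ventral samples (1.36 ± 0.04, FDR = 1.07e-12). The ventral calls held the ligands Efnb2 (-1.19), Efnb1 (-0.44) and Efna3 (-0.43) and the receptors Ephb6 (-0.53) and Ephb3 (-0.40). Efnb2 was at 7.65 to 10.2 CPM in dorsal samples and 18.4 to 22.2 CPM in ventral samples. Among semaphorins, plexins and neuropilins, 10 of 31 were called toward dorsal and 7 toward ventral DG. The secreted or membrane-bound ligands Sema5a (1.33), Sema5b (1.22), Sema3a (0.93), Sema7a (0.92) and Sema3c (0.89) led the dorsal side, with Sema5a at 352 to 407 CPM in dorsal samples and 136 to 169 CPM in ventral samples, and Sema3b (-1.04), Plxnc1 (-0.66), Sema4g (-0.62), Sema3d (-0.51) and Sema3f (-0.48) the ventral side. The neuropilin receptors Nrp1 (-0.25) and Nrp2 (0.14) were not called. Of 20 genes of the netrin and Slit systems, 5 were higher in dorsal DG, Robo3 (1.93), Draxin (0.91), Ntng1 (0.85), Robo2 (0.53) and Slit1 (0.31). The single ventral call of this list, Slit2, was at 33.6 to 47.9 CPM in dorsal and 46.2 to 69.1 CPM in ventral samples (-0.53 ± 0.04). Its samples overlapped between the regions. The netrin gene Ntn5, a leading ventral gene, is not in this list (-3.06 ± 0.12). Of 26 non-clustered cadherins and protocadherins, 4 were higher in dorsal DG, Pcdh8 (0.95), Cdh8 (0.64), Pcdh17 (0.57) and Pcdh1 (0.38), and 8 in ventral DG. The largest of these was Cdh3 (-2.54 ± 0.51), at 0 to 0.289 CPM in dorsal samples and 0.180 to 1.72 CPM in ventral samples with overlapping samples, followed by Cdh22 (-0.77 ± 0.09) and Pcdh11x (-0.72).

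Peptide signalling was called more often toward ventral DG. Of 24 neuropeptide genes 12 were higher in ventral and 6 in dorsal DG, and of 34 neuropeptide receptors 16 were higher in ventral and 6 in dorsal DG, with median log2 fold changes of -0.28 and -0.43. The opioid peptide precursors went to the dorsal side. Penk (enkephalin) was at 31.8, 36.2, 43.0, 41.9 and 38.9 CPM in dorsal samples and 13.5, 15.3, 13.5, 24.1 and 18.4 CPM in ventral samples (1.19 ± 0.08, FDR = 8.38e-09). Pdyn (dynorphin) was at 33.0 to 45.1 CPM in dorsal samples and 16.6 to 27.1 CPM in ventral samples (0.94 ± 0.07). The receptors of these peptides did not share 1 direction. The delta receptor gene Oprd1 was higher in dorsal DG (0.88 ± 0.07), and the kappa and mu receptor genes Oprk1 (-1.65 ± 0.20) and Oprm1 (-0.40 ± 0.15) were higher in ventral DG. After Grp the ventral peptides were Nts (-3.02), Gal (-1.81), Cartpt (-1.56), Rln1 (-1.47), Nxph3 (-1.25), Cort (-1.12), Adcyap1 (-1.0), Vip (-0.99), Sst (-0.90), Tac1 (-0.64) and Vgf (-0.33). Nts (neurotensin) was at 0.0406 to 0.404 CPM in dorsal samples and 0.812 to 3.38 CPM in ventral samples. Cck (-0.05) and Crh (0.18) were not called.

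Tacr3, the neurokinin B receptor, was at 3.64, 2.43, 4.78, 2.47 and 4.95 CPM in ventral and 0.331, 0.165, 0.284, 0.245 and 0.140 CPM in dorsal DG (-3.95 ± 0.21, FDR = 3.07e-10). Oxtr, the oxytocin receptor, was at 10.2, 8.02, 11.6, 9.88 and 10.5 CPM in ventral and 3.57, 2.40, 3.61, 2.82 and 3.26 CPM in dorsal DG (-1.68 ± 0.08, FDR = 1.11e-10). The ventral groups of both genes lay above every dorsal sample. Npr3, the natriuretic peptide clearance receptor, was at 3.72 to 5.03 CPM in dorsal samples and 14.1 to 20.7 CPM in ventral samples (-2.03 ± 0.08). The relaxin receptors Rxfp3 (-1.20) and Rxfp1 (-0.94), the stress hormone receptor Crhr1 (-0.59 ± 0.08), the orexin receptor Hcrtr1 (-0.71) and the somatostatin receptors Sstr1 (-1.20), Sstr3 (-0.56) and Sstr4 (-0.43) were higher in ventral DG. The dorsal receptors were Npy1r (0.92), Cckbr (0.91), Oprd1 (0.88), Sstr2 (0.82), Npy5r (0.65) and Npr2 (0.30). The Y2 receptor Npy2r was higher in ventral DG (-0.45 ± 0.04), unlike Npy1r and Npy5r. Oxtr and Sstr3 were among the 4 of 34 receptors (11.8%) with the pool order of the choroid plexus markers, as was Oprd1 of the dorsal side. The order was found for 7.04% of all tested genes and 10.5% of those higher in ventral DG.

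Receptors of monoamines and acetylcholine were called in both directions, 10 dorsal and 6 ventral of 32. On the dopamine side the D1-like genes Drd1 (1.93) and Drd5 (0.71 ± 0.06) were higher in dorsal DG, and Drd2 gave 0.47 ± 0.17 with overlapping samples. Serotonin receptors were divided: Htr2a (0.40 ± 0.08) and Htr4 (0.45 ± 0.05) were higher in dorsal DG, and Htr2c (-2.67), Htr7 (-1.09), Htr3a (-0.75) and Htr1a (-0.62) in ventral DG. Htr1a, the 5-HT1A receptor, was at 20.8 to 26.5 CPM in dorsal samples and 34.7 to 39.3 CPM in ventral samples, and Htr7 at 4.50 to 7.61 CPM in dorsal samples and 11.0 to 15 CPM in ventral samples. Among muscarinic receptors Chrm1 (0.49) and Chrm3 (0.33) were higher in dorsal and Chrm4 (-0.70) and Chrm5 (-2.04) in ventral DG.

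Receptors of glutamate, GABA and glycine differed by less than 2-fold apart from 3 genes, Grm2, Gabra3 and Glra3. Of 24 glutamate receptors 11 were called toward dorsal and 4 toward ventral DG. Grm2, a presynaptic metabotropic receptor of mossy fibres, was at 79.6, 86.0, 94.7, 93.2 and 84.5 CPM in dorsal samples and 32.5, 38.4, 30.7, 46.8 and 39.6 CPM in ventral samples (1.23 ± 0.07, FDR = 3.29e-10). The NMDA receptor subunits Grin2a (0.63), Grin2b (0.52) and Grin1 (0.45) and the AMPA receptor subunits Gria1 (0.32), Gria3 (0.29) and Gria2 (0.29) were higher in dorsal DG, Grin2a at 601 to 738 CPM in dorsal samples and 396 to 451 CPM in ventral samples. The kainate receptor subunits Grik1 (-0.99) and Grik4 (-0.55), with Grin3a (-0.39) and Gria4 (-0.35), were higher in ventral DG. Of 17 GABA and glycine receptors 5 went each way. Gabrd, the delta subunit of tonic inhibition in granule cells, was at 47.8 to 64.0 CPM in dorsal samples and 25.8 to 38 CPM in ventral samples (0.85 ± 0.06). Gabra3, the alpha3 subunit, was at 11.8 to 12.9 CPM in dorsal samples and 21.9 to 31.2 CPM in ventral samples (-1.22 ± 0.06). The glycine receptor subunit Glra3 was higher in ventral DG (-1.14 ± 0.11).

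Ion channels leaned to dorsal DG. Of 64 potassium channel genes 26 were called toward dorsal (40.6%) and 10 toward ventral DG (15.6%), and of 35 sodium, calcium and HCN channel genes 14 were called toward dorsal (40%) and 3 toward ventral DG (8.57%). Kcnj2, an inward rectifier that holds the resting potential, was at 36.3, 34.4, 38.4, 41.5 and 39.7 CPM in dorsal samples and 12.3, 12.3, 12.0, 17.9 and 13.6 CPM in ventral samples (1.49 ± 0.06, FDR = 1.53e-11). Further dorsal genes were the rectifiers Kcnj11 (0.90), Kcnj4 (0.84), Kcnj3 (0.65) and Kcnj6 (0.65), the leak channel Kcnk1 (0.92 ± 0.04) and the A-type channels Kcnd2 (0.67) and Kcna4 (0.66). Kcnq5, an M-current channel, was at 50.2, 38.2, 41.3, 35.4 and 40.6 CPM in dorsal samples and 133, 107, 162, 118 and 137 CPM in ventral samples (-1.67 ± 0.06, FDR = 6.84e-12). Its partner Kcnq3 was higher in dorsal DG (0.40 ± 0.05). Kcnj16 was at 13.6 to 16.9 CPM in dorsal samples and 34.6 to 48.1 CPM in ventral samples (-1.50 ± 0.05). The T-type calcium channels were divided: Cacna1h was higher in dorsal DG (0.99 ± 0.04), Cacna1i was higher in ventral DG at 36.2 to 45.8 CPM in dorsal samples and 89.5 to 116 CPM in ventral samples (-1.33 ± 0.05), and Cacna1g (-0.04) was not called. The sodium channel genes Scn4b (1.08), Scn3a (0.74), Scn8a (0.43), Scn3b (0.38) and Scn2a (0.33) were higher in dorsal and Scn9a (-1.66 ± 0.14) in ventral DG. The HCN pacemaker channel gene Hcn4 was higher in dorsal DG (0.50 ± 0.20).

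Stress hormone genes went 6 each way of 19. Both corticosteroid receptors were higher in dorsal DG. Nr3c2, the mineralocorticoid receptor, was at 396, 358, 414, 411 and 382 CPM in dorsal samples and 256, 256, 271, 273 and 264 CPM in ventral samples (0.57 ± 0.04, FDR = 7e-09). Nr3c1, the glucocorticoid receptor, was at 134 to 148 CPM in dorsal samples and 113 to 124 CPM in ventral samples (0.28 ± 0.04). Their known target Klf9 was at 216 to 234 CPM in dorsal samples and 137 to 148 CPM in ventral samples (0.66 ± 0.04). The targets Tsc22d3 (-0.53), Pdk4 (-0.57), Dusp1 (-0.39) and Mt2 (-0.34) were higher in ventral DG, with Crhbp, the binding protein of corticotropin-releasing hormone, at 2.89 to 4.25 CPM in dorsal samples and 6.86 to 9.59 CPM in ventral samples (-1.13 ± 0.10). Fkbp5 (0.16), Sgk1 (0.20) and Per1 (0.22) were not called.

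Retinoic acid genes were called in 15 of 20 cases, 5 dorsal and 10 ventral. The degrading enzymes were opposed: Cyp26b1 was the second leading dorsal gene, and Cyp26a1 was higher in ventral DG at a low level, 0.0351 to 0.204 CPM in dorsal samples and 0.783 to 1.24 CPM in ventral samples (-3.37 ± 0.39). Of the receptors Rara was higher in dorsal DG (0.59 ± 0.08), and Rxrg (-1.98), Rxra (-0.72) and Rarb (-0.54) were higher in ventral DG, with Rxrg at 4.46, 4.23, 3.33, 3.57 and 5.69 CPM in ventral and 0.772, 1.16, 0.974, 1.27 and 1.23 CPM in dorsal DG. The enzyme genes Aldh1a3 (-1.11), Rdh5 (-0.86), Dhrs3 (-0.67) and Rdh10 (-0.39) were ventral, and the enzyme gene Aldh1a1 (0.46) and the carrier gene Rbp4 (0.43) dorsal. Ttr stands in this list and in that of choroid plexus. Ttr, Rdh5 and Stra6 were the 3 of 20 (15%) with the choroid plexus pool order, against 7.04% of all tested genes. Of 50 Wnt pathway genes 11 were called toward dorsal and 13 toward ventral DG. The ventral side held the secreted antagonists Sfrp2 (-1.77), Frzb (-1.26), Sfrp5 (-1.19), Sfrp1 (-0.42) and Dkk3 (-0.37), the intracellular antagonist Nkd2 and the agonists Rspo2 (-0.66) and Rspo3 (-0.29). Nkd2 was at 18.1, 14.5, 20.9, 16.0 and 15.9 CPM in ventral and 3.75, 3.31, 3.17, 3.19 and 3.54 CPM in dorsal DG (-2.32 ± 0.08, FDR = 4.91e-12). Among ligands Wnt4 (-1.51 ± 0.11) and Wnt7b (-0.31) were ventral and Wnt8b (1.60), Wnt3 (0.85), Wnt9a (0.61), Wnt2 (0.32) and Wnt10a (0.31) dorsal, and the pathway's feedback gene Axin2 was higher in dorsal DG (0.46 ± 0.05).

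In the extracellular matrix 18 of 36 collagens were higher in ventral and 3 in dorsal DG, with a median log2 fold change of -0.35. Toward ventral DG were also 6 of 16 meningeal and mural cell markers and all 18 choroid plexus markers, whose part in the collagen levels was not tested. Col8a2 was at 0.450 to 1.14 CPM in dorsal samples and 3.87 to 10.8 CPM in ventral samples (-2.95 ± 0.21). Col8a1 was at 0.351 to 1.18 CPM in dorsal samples and 2.03 to 8.38 CPM in ventral samples (-2.77 ± 0.24). These 2 with Col9a3 had the pool order of the choroid plexus markers. That is 3 of 36 collagens (8.33%), near the 7.04% of all tested genes and the 10.5% of those higher in ventral DG. The fibrillar collagens Col1a1 (-0.19) and Col1a2 (-0.08) were not called, Col3a1 (-0.39 ± 0.13) and Col5a1 (-0.70 ± 0.16) were higher in ventral DG, and the vessel collagens Col4a1 (0.12) and Col4a2 (0.16) were not called. Perineuronal net and hyaluronan genes were called in 6 dorsal and 5 ventral cases of 21. Acan (aggrecan), the core proteoglycan of perineuronal nets, was at 11.2, 9.80, 12.2, 10.3 and 10.6 CPM in dorsal samples and 3.29, 2.57, 2.70, 3.88 and 3.66 CPM in ventral samples (1.74 ± 0.10, FDR = 8.28e-10), and the net protein Tnr was also higher in dorsal DG (0.57 ± 0.04). The link proteins Hapln4 (-0.54), Hapln3 (-0.54) and Hapln1 (-0.30) were higher in ventral DG, and Bcan (-0.03) and Ncan (0.05) were not called. Of 8 copines 7 were called. Beside Cpne7, Cpne2 was at 12.1 to 15.3 CPM in dorsal samples and 39.2 to 46.8 CPM in ventral samples (-1.67 ± 0.07) and was higher in ventral DG. Cpne9 was at 32.8 to 39.3 CPM in dorsal samples and 9.82 to 15.6 CPM in ventral samples (1.55 ± 0.08) and was higher in dorsal DG.

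Growth factor genes went both ways, 7 dorsal and 8 ventral of 31. The neurotrophins Bdnf (0.72) and Ntf3 (0.68) were higher in dorsal DG. Bdnf was at 75.4, 64.2, 77.9, 95.9 and 83.4 CPM in dorsal samples and 45.7, 38.9, 45.7, 58.5 and 52.0 CPM in ventral samples (0.72 ± 0.04, FDR = 1.78e-10). Its receptor gene Ntrk2 (-0.21) was not called and the low-affinity receptor gene Ngfr was higher in ventral DG (-1.02 ± 0.19). Of the IGF-binding proteins Igfbp5 (0.62) and Igfbp6 (0.52) were dorsal and Igfbp3 (-1.35) and Igfbp2 (-0.95) ventral.

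Marker lists of the neurogenic lineage were called in different directions. Of 17 radial glia-like stem cell markers 5 were higher in ventral (29.4%) and 0 in dorsal DG. Of all tested genes 30.7% were called, 15.8% toward ventral DG, so the share called in this list was near that of all genes. The ventral calls were Hes5 (-0.83), Fabp7 (-0.81), Hopx (-0.33), Sox2 (-0.29) and Emx2 (-0.26), while Gfap and Nes (-0.12) were not called. Astrocyte markers were also higher in ventral DG for 7 of 14, and the part of astrocyte RNA in these calls was not tested. Of 20 neuroblast and maturing neuron markers 12 were called toward dorsal (60%) and 3 toward ventral DG (15%). Dcx, the microtubule protein of migrating neuroblasts, was at 17.2, 14.1, 14.5, 16.3 and 16.2 CPM in dorsal samples and 12.7, 10.0, 9.12, 11.3 and 13.7 CPM in ventral samples (0.46 ± 0.07, FDR = 2.31e-05). Eomes (Tbr2), of intermediate progenitors, was at 1.4 to 1.61 CPM in dorsal samples and 0.465 to 0.941 CPM in ventral samples (1.01 ± 0.18). Igfbpl1 was at 7.98 to 10.2 CPM in dorsal samples and 2.90 to 4.82 CPM in ventral samples (1.15 ± 0.09). Neurod1 (0.30), Neurod2 (0.90), Sox4 (0.62) and Sox11 (0.48) were also dorsal, with Calb2 the main exception. Of 25 proliferation genes 7 were called toward dorsal DG, Mcm6 (0.97), Mki67 (0.77), Ccnb1 (0.65), Mcm5 (0.59), Top2a (0.59), Ccna2 (0.53) and Rrm2 (0.51) (4 with DESeq2), and 3 toward ventral DG, Cenpe (-0.79), Ccnd1 (-0.65) and Ccnd2 (-0.32). Mki67, expressed by cells in cycle, was at 4.45, 4.75, 4.67, 3.92 and 3.37 CPM in dorsal samples and 2.29, 2.34, 2.31, 2.70 and 2.62 CPM in ventral samples (0.77 ± 0.12). These markers were not set against the number of granule cells in a punch, whose own markers were 1.74-fold higher in dorsal DG by summed CPM. Ncdn made up the largest part of that granule cell sum.

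Activity-induced genes were higher in dorsal DG for 16 of 38 (42.1%) and in ventral DG for 6 (15.8%). The median log2 fold change of the list was 0.21 in EE and 0.34 in SH. In edgeR's test of the difference between EE and SH, 11 of the 38 had p under 0.05 before adjustment and 0 passed FDR 0.05. Of all genes in that test 5.18% had p under 0.05. Npas4, an activity-dependent factor of neurons, was at 6.10, 7.03, 5.48, 6.25 and 6.84 CPM in dorsal samples and 3.53, 3.33, 2.97, 3.8 and 3.03 CPM in ventral samples (0.93 ± 0.10, FDR = 6.67e-07). The immediate early genes Egr1 (0.89), Egr3 (0.68), Egr2 (0.57), Arc (0.48), Fos (0.40) and Junb (0.37) were higher in dorsal DG, Egr1 at 18.9 to 29.1 CPM in dorsal samples and 12.7 to 14.2 CPM in ventral samples and Arc at 151 to 186 CPM in dorsal samples and 108 to 153 CPM in ventral samples. The largest dorsal fold changes were of Atf3 (1.58 ± 0.16), Inhba, the activin A subunit (1.52 ± 0.13), Dusp4 (1.12 ± 0.06) and Nptx2 (1.11 ± 0.06). The orphan nuclear receptor genes Nr4a3 (-0.38) and Nr4a2 (-0.33), with Gadd45b (-0.45), Klf4 (-0.44), Dusp1 (-0.39) and Vgf (-0.33), were higher in ventral DG, and Nr4a1 (0.21), Fosb (0.18) and Homer1 (-0.10) were not called.

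Of 25 genes of DNA methylation and demethylation 9 were called toward dorsal and 3 toward ventral DG, with all of these except Dnmt3l (-1.57 ± 0.37, 0.0409 to 0.221 CPM in dorsal samples and 0.295 to 0.631 CPM in ventral samples) within 2-fold. The methyltransferases Dnmt3a (0.27 ± 0.04) and Dnmt1 (0.28 ± 0.04), the dioxygenases Tet3 (0.41 ± 0.05) and Tet2 (0.38 ± 0.05) and the glycosylases Mbd4 (0.74 ± 0.07) and Tdg (0.31 ± 0.06), which remove modified bases, were higher in dorsal DG. Dnmt3a was at 65.9 to 73.0 CPM in dorsal samples and 54.7 to 62.9 CPM in ventral samples. Gadd45a (0.63 ± 0.10) was dorsal and Gadd45b (-0.45 ± 0.07) ventral, and Tet1 (0.17) was not called. Synaptic vesicle genes gave 10 dorsal and 12 ventral calls of 52. The calcium sensor gene Doc2b was at 149.9, 145, 161, 164 and 146 CPM in dorsal samples and 57.0, 62.9, 56.6, 61.1 and 57.6 CPM in ventral samples (1.38 ± 0.04, FDR = 1.03e-12), and Rph3a (1.00 ± 0.04) and Sv2c (0.94 ± 0.07) were also dorsal. Sv2b was at 294 to 360.0 CPM in dorsal samples and 497 to 697 CPM in ventral samples (-0.88 ± 0.06) and was ventral, as was Unc13c (-0.77 ± 0.05). Among synapsins Syn3 was dorsal (1.89), Syn2 ventral (-0.39) and Syn1 not called (0.11).

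**Figure D4:**
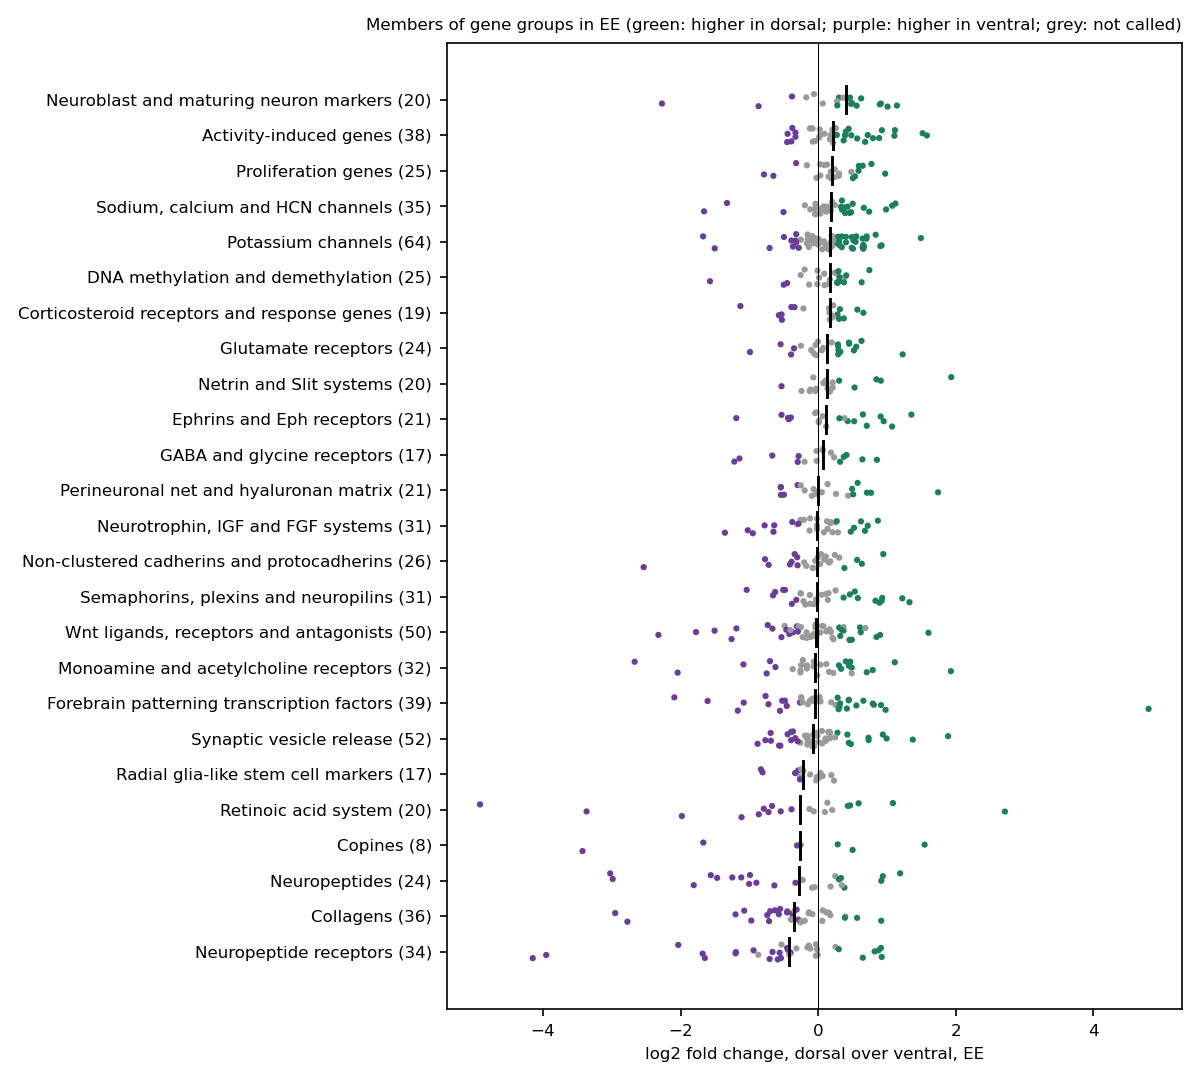
Log2 fold change of dorsal over ventral DG in EE for the members of 25 gene groups, ordered by their median (black bar), with the number of members tested in parentheses. Points are green where higher in dorsal, purple where higher in ventral DG and grey where not called; 12 of 20 neuroblast and maturing neuron markers are green and 16 of 34 neuropeptide receptors purple.

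The regional difference of EE was set beside that of SH, for which 4 pools were used (replicates 1, 2, 4 and 5). In SH 4865 of 16604 genes (29.3%) were called, and 4893 with SH pool 3 added. No sample entered both contrasts. Of the 5039 genes called in EE and also tested in SH, 4976 (98.7%) had the same sign in SH, 63 the opposite sign, 3813 were called in the same direction and 1 in the opposite direction. All 20 leading genes had the same direction in SH, with log2 fold changes there of, for example, -4.67 for Serpina3g (-3.34 in EE), 2.99 for Otos (3.69 in EE) and 3.23 for Cyp26b1 (2.72 in EE). Further SH values were those of Lct (1.79), Trhr (-4.07), Cpne7 (-3.68), Grp (-3.28) and Crym (-2.45). A p from the test of the difference under 0.05 before adjustment was seen for Cyp26b1 (0.00167), Drd1 (0.0044; log2 fold change 1.93 in EE and 2.41 in SH), Pla2g2f (0.00902), Serpina3g (0.0101) and Cpne7 (0.0294) among the 20 leaders, none of which passed the adjustment.

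The test of the difference itself, the interaction of region and housing over 18 samples of 9 pools, called 2 of 17040 genes at FDR 0.05 (0.0117%), and 882 genes (5.18%) had p under 0.05. Igfbp6, an IGF-binding protein, was at 11.5, 12.5, 11.9, 14.7 and 13.6 CPM in dorsal EE and 8.27, 7.29, 9.40, 9.57 and 10.3 CPM in ventral EE. In SH the dorsal samples held 4.05, 4.94, 4.83 and 4.32 CPM and the ventral samples 5.40, 6.73, 5.55 and 6.28 CPM. Its level was higher in dorsal DG in every EE pool and lower in dorsal DG in every SH pool, and the 2 log2 fold changes differed by 0.92 ± 0.12 (FDR = 0.00478). Acvr1c, a type I activin receptor, was at 100.5, 79.2, 100.3, 104 and 102 CPM in dorsal EE and 60.1, 53.5, 66.6, 70.2 and 71.5 CPM in ventral EE. In SH the dorsal samples held 69.0, 58.0, 66.3 and 66.3 CPM and the ventral samples 58.7, 56.7, 58.7 and 61.6 CPM. The regions did not overlap in EE and overlapped in SH, and the difference of the log2 fold changes was 0.46 ± 0.06 (FDR = 0.00478). With SH pool 3, left out for its Xist level, added back, the same 2 genes were called, Igfbp6 with a difference of 0.97 (FDR = 0.000836) and Acvr1c with 0.50 (FDR = 0.00119). Without SH pool 2 the FDR of both genes was 0.0501, and without the pool block the FDR of Acvr1c was 1.00 while Igfbp6 was still called. The next 3 genes by p, Gap43, the growth cone protein (-0.24 ± 0.05), Nrip2 (0.40 ± 0.09) and Klhl40 (0.56 ± 0.13), had FDR = 0.91. Gap43 was higher in ventral DG in both housings, with 48.8 ± 2.53 CPM in dorsal EE against 89.6 ± 2.60 CPM in ventral EE (SD, n = 5), and 53.1 ± 0.719 against 82.6 ± 2.31 CPM in SH (SD, n = 4).

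**Figure D5:**
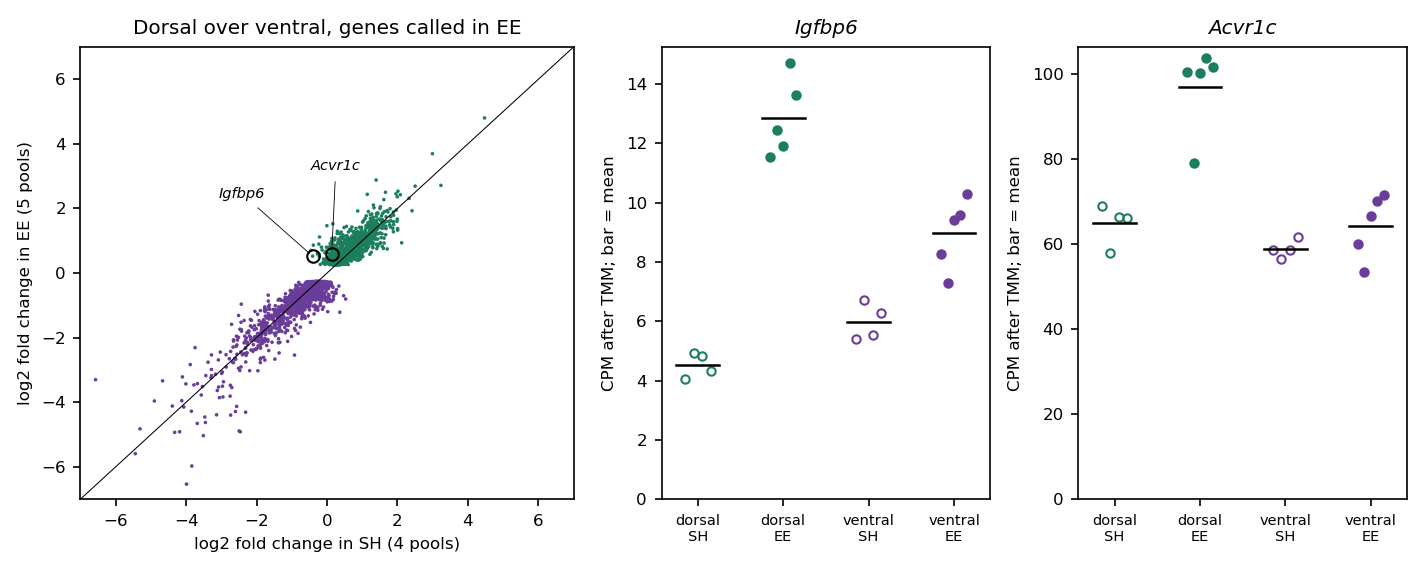
Left, log2 fold change of dorsal over ventral DG in EE (vertical) against that in SH (horizontal) for the genes called in EE and tested in SH, green where higher in dorsal and purple where higher in ventral DG, with the line of equal values; 4976 of 5039 points have the same sign on both axes. Middle and right, CPM of Igfbp6 and Acvr1c in each of the 18 samples (open circles SH, filled circles EE, bars the group means), with dorsal EE at 11.5 to 14.7 CPM for Igfbp6 and 79.2 to 104 CPM for Acvr1c.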

How the data were processed

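RNA-seq of dorsal and ventral DG punches was used, with 5 EE replicates per region and 4 SH replicates per region beside them. Replicates shared between regions came from the same pools of mice (stated for the study's samples), and samples of 1 pool deviated together (r = 0.0788 to 0.317 for the 5 EE pools, mean 0.181, against -0.0442 for different pools), so pool was a block. SH replicate 3 was left out in both regions. An SH sample was excluded in the paper for Xist, its number not given. SH replicate 3 had 34.3 and 11.9 CPM of Xist, against at most 0.652 in every other sample. The paper describes Xist as expressed in females alone. The sex of the mice in this pool was not tested, and fits with it added back are to be read with that limit. The bisulfite libraries were not used here.

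Reads were trimmed with Trim Galore 0.4.0 and aligned to mm10 with STAR 2.5.1b by the authors, per the labels, and the deposited counts are whole fragments per gene for 46480 genes, without normalization. The authors also deposited the expected count of each gene and its TPM, which shares fragments among isoforms and scales for length; the labels name RSEM 1.2.30. Gene names and coordinates came from Gencode vM21 (mm10) and 45968 genes had a name. The column for reverse-stranded libraries was used, with 22919364 to 28301861 counts per EE sample. Fragments not counted for a gene took 34.5 to 40.9% of the fragments in EE samples and are in no library size. They include unmapped, multiply mapped and ambiguous fragments beside those on no gene.

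Genes that exceeded 10 counts in 2 or more samples entered the test, made with TMM and glmQLFit and glmQLFTest of edgeR 4.0.16 (R 4.3.3), and p-values were adjusted by Benjamini-Hochberg. The interaction was tested over 18 samples with pool nested in housing. On simulated data the test called 3 of 16429 unchanged genes, and of 200 genes changed 1.5-fold and 2-fold it recovered 80% and 86.5%. At 1.5-fold it called 168 genes, 160 of them changed, and at 2-fold 184 genes, 173 of them changed. The simulation had no pool effects and far fewer changed genes than were called in the data. At these depths low genes (a few CPM) are measured with visibly wider errors, which the standard errors carry. Alternatives were DESeq2 1.42.0, RLE size factors, a likelihood ratio test, no block, other filters, unstranded and expected counts (rounded), no fold limit, and each pool left out.

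The named genes were, per direction, the 10 largest fold changes and the 5 largest CPM differences (called, TPM above 1 in 3 or more samples, 1 direction in all 5 pools, in no list of another cell type), the 2 largest called members of each list, and the 5 smallest interaction p; other list members are named with their values. A few list members enter the counts but are not reported here by name. Members and lists were chosen with earlier results of these data known, so counts over lists are descriptions and no set test was made. Promoters were taken from RefSeq (GRCm38.p6); 11932 of 16687 tested genes had one, under 80%, so no share is given for called sets.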

Additional observations from a re-analysis of the deposited data

Results flagged for a closer look

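In 96 groups of 5 samples (the leading genes and the summed cell type markers, in each region) 4 held a sample whose gap to its neighbour exceeded Dixon's limit, where chance gives about 1 group in 20. Batf3 was at 2.28 CPM in dorsal EE pool 5 and at 1.4 to 1.64 CPM in the other dorsal samples. Adcy1 was at 1659.8 CPM in ventral EE pool 2 and at 1143 to 1288 CPM in the other ventral samples. Serpina3g was at 0.625 CPM in dorsal EE pool 1 and at 0.286 to 0.351 CPM in the others. With TMM factors of the 10 EE samples alone, Acvr1c was at 79.0 CPM in dorsal EE pool 2 and at 100.2 to 104 CPM in the others.

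The dorsal to ventral log2 fold change differed between EE and SH by the interaction test for Igfbp6 (difference 0.92) and Acvr1c (difference 0.46).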

How the results depend on the processing

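Leaving out each pool in turn gave 2227 to 2442 genes higher in dorsal DG, 2411 to 2681 higher in ventral DG, 785 to 870 over 2-fold, 3237 to 3534 expressed genes called and 4427 to 4735 genes called in SH. Without the fold limit, 4366 genes were called toward dorsal and 4333 toward ventral DG, and 6876 expressed genes were called, since that limit removes small differences. The interaction called 1 gene without the replicate block and 0 to 2 when a pool was left out (0 only without SH replicate 2; 669 to 1062 genes at unadjusted p under 0.05). The block changed no other count by both over 1.5 times and more than 1 gene. It changed the calls of Cldn11, Aif1, Vwf, Drd2 and Acvr1c. The named genes kept direction and call in 2231 of 2273 refits and lost the call in 42, which were of Cldn11, Aif1, Vwf, Drd2, Mag, Col6a6, Neurog2, Fzd10, Igfbp6 and Acvr1c; none reversed. List counts stayed within 1.5 times, or within 1 gene, of the main count in 1112 of 1140 refits. In small lists a change of 1 gene, also to 0, was thus taken as no change. Of the 28 counts that moved, 16 were without the fold limit. Habenula and thalamus fell to 5 dorsal calls with another filter (filterByExpr) or without replicate 1 or 2. Proliferation genes fell to 4 with DESeq2, and oligodendrocyte markers to 0 under several settings. RLE factors moved the median log2 fold change by -0.0045 and the dorsal share of calls from 48.5% to 47.4%. The cause of these changes was not tested.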
